A study of Mus musculus with 24 samples.

Results

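The genes described here are 7 components and regulators of the complement system: C3, C4b, C2, Cfb, Serping1, Cd55 and Cd59a. They were taken by symbol from the 24825 gene rows of the deposited expression table, and 6 of the 7 passed the filter on low values (3 or more libraries at 1 FPKM or above), which kept 12640 genes for testing. Cd55 did not pass it. The libraries came from stromal vascular fraction cells of inguinal white fat of Nfia flox/flox mice, immortalized with SV40 large T antigen, so that every group carried the floxed alleles and the antigen. The 4 cell types were made from these cells by retroviral infection. The ctrl cells received empty vector, the Cre cells received Cre recombinase, which removes the floxed exon 2 of Nfia, and the Cre + NFIA cells received Cre and FLAG-tagged full-length NFIA. The Cre + NFIA Δpro#3 cells received Cre and an NFIA that lacks the C-terminal proline rich segment called pro#3. RNA was taken at day 0 and at day 7 of differentiation with a cocktail for thermogenic adipocytes (isobutylmethylxanthine, indomethacin, dexamethasone, insulin, T3 and rosiglitazone, followed by insulin, T3 and rosiglitazone), with 3 libraries in each of the 8 groups and 24 in all. The labels do not say whether the 3 libraries of a group came from separate infections or cultures, and the p-values measure the spread between these libraries. A pool of immortalized cells is a culture model of the precursor and of the adipocyte it forms, not of fat tissue.

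Complement is a cascade of plasma proteins that tags particles for uptake and can end in a pore in the target membrane. C1r activates C1s, which cleaves C4 and C2 to form the C3 convertase of the classical pathway. That of the alternative pathway forms when factor D, encoded by Cfd and also called adipsin, cleaves factor B, encoded by Cfb. Both convertases cleave C3. Serping1 encodes the C1 inhibitor, and CD55 and CD59 are anchored in the cell's own membrane, where the former speeds the decay of convertases and the latter blocks the pore. Adipose tissue is a known source of complement proteins, adipsin above all.

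Recovered totals of reads counted in genes were 7.73 to 13.09 M per library at day 0 and 9.15 to 14.62 M at day 7 (M, 1000000 reads). Nfia, the targeted gene, was at 6.23, 6.75 and 6.43 FPKM (fragments per kilobase of transcript per 1000000 fragments counted in genes) in the ctrl libraries of day 0 and at 6.81, 5.34 and 6.49 in the libraries labelled Cre. The day 7 values were 9.81, 9.15 and 9.70 in ctrl and 10.7, 10.1 and 9.49 in the libraries labelled Cre. The gene-level value therefore did not separate the libraries labelled Cre from ctrl (log2 difference -0.06, 95% interval -0.21 to 0.10, at day 0, and 0.07, -0.09 to 0.23, at day 7). A value summed over all exons does not read the deleted exon 2, so the label Cre was not checked by it, and the directions below are those of the libraries as labelled. Nfia was at 74.9, 69.7 and 72.7 FPKM with full-length NFIA and at 61.7, 59.7 and 60.7 with Δpro#3 at day 0. By day 7 they reached 97.1, 89.0 and 83.9 with full-length NFIA and 111, 99.5 and 95 with Δpro#3, so that both vectors were read in every library meant to carry one.

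In the build of the deposited values (mm9, NCBIM37), 4 of the 7 genes lay on chromosome 17, and C4b, Cfb and C2 were in the class III region of the major histocompatibility complex. C4b spans 34865325 to 34880827, Cfb 34993319 to 34999463 and C2 34999549 to 35035397, all on the minus strand, with 85 bases between Cfb and C2. C3 lies apart from them, at 57343397 to 57367559 on the minus strand. Serping1 (chromosome 2, 84605544 to 84615601, minus strand), Cd59a (chromosome 2, 103935958 to 103955511, plus strand) and Cd55 (chromosome 1, 132335604 to 132359321, minus strand) completed the set. RefSeq promoter sequences (table of build GRCm38.p6) matched 3 of the 7 members, and the 250 bases before the gene start are shown for C3 and Cd59a, the members that stood higher with full-length NFIA at day 7. Capitals mark the only matches found on either strand to 6 motifs searched. Each stretch occurs once on its own chromosome in NCBIM37, and other chromosomes were not searched for it. In C3 the capitals match the C/EBP letters TTGCNNAA at position -45 from the start, which 9.56% of the 32851 promoters of the table hold. In Cd59a they match the IRF letters (GAAA, 2 bases of any kind, GAAA) at position -187, which 2.98% hold. The NFI letters TTGGCA, found in 12.3% of promoters, and the full NFI palindrome (TTGGC, 5 bases of any kind, GCCAA), found in 0.0365%, had no match in either stretch or in that of Cd55. The STAT letters TTCNNNGAA, in 7.02%, and the PPAR-RXR letters (AGGTCA, 1 base of any kind, AGGTCA, in 0.0335%) had none in these 3 promoters either. A match is a run of letters in this window and says nothing of binding.
C3, chr17:57367560-57367809, minus strand: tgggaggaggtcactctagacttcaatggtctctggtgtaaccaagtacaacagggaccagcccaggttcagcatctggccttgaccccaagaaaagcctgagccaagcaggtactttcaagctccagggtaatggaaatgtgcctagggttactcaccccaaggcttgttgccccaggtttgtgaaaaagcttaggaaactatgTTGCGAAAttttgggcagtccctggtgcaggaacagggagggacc
Cd59a, chr2:103935708-103935957, plus strand: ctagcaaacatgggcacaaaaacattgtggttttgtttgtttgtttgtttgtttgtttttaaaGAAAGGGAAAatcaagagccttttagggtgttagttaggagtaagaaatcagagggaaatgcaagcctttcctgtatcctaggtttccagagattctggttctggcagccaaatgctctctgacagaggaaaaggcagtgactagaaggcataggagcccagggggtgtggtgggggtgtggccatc

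C3, the central component, was the most abundant member per length, and it stood highest with full-length NFIA at both days. The day 0 libraries held C3 at 268, 283 and 303 FPKM in ctrl, 243, 237 and 253 in Cre, 429, 411 and 406 in Cre + NFIA and 208, 223 and 194 in Cre + NFIA Δpro#3. The Cre + NFIA libraries lay above all others, and no 2 of the 4 cell types overlapped. At day 7 the values were 125, 133 and 139 in ctrl, 97.2, 102 and 78.1 in Cre, 197, 168 and 185 in Cre + NFIA and 62.6, 76.6 and 86.2 in Cre + NFIA Δpro#3. Here too the Cre + NFIA libraries lay above all others, while Cre and Δpro#3 overlapped. Cell types without overlap were common among all 12640 genes tested. At day 0 their share ran from 20% for Cre against ctrl to 44.6% for Cre + NFIA against ctrl. At day 7 it ran from 32.8% for Δpro#3 against Cre to 72.8% for Δpro#3 against Cre + NFIA. These shares apply to the members below as well. C3 was 1.70-fold higher in Cre + NFIA than in Cre at day 0 (log2 difference of FPKM + 1, the scale of every log2 difference below, 0.76, SE 0.059, adjusted p = 6.85e-06) and 1.98-fold higher at day 7 (0.99, SE 0.12, adjusted p = 1.87e-05). With Δpro#3 it was lower than with full-length NFIA, 1.99-fold at day 0 (-0.99, SE 0.059, adjusted p = 3.59e-06) and 2.44-fold at day 7 (-1.29, SE 0.12, adjusted p = 1.31e-06). Neither of these differences was shown to depend on the day, since the difference between days was 0.22 for the first (95% interval -0.07 to 0.51, adjusted p = 0.203) and -0.29 for the second (-0.59 to -0.00, adjusted p = 0.0785). In Cre compared with ctrl, C3 was 1.43-fold lower at day 7 (-0.52, SE 0.12, adjusted p = 0.00279), and the difference at day 0 missed the threshold (-0.22, SE 0.059, adjusted p = 0.0749). Compared with Cre, Δpro#3 was 1.17-fold lower at day 0 (-0.23, adjusted p = 0.0231), which was lost without Cre replicate 3 or without Δpro#3 replicate 1 or 3 (-0.20, -0.23 and -0.18, adjusted p = 0.0728, 0.0694 and 0.0891), and the day 7 difference missed the threshold (-0.30, 95% interval -0.56 to -0.04, adjusted p = 0.113).

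**Figure D1:**
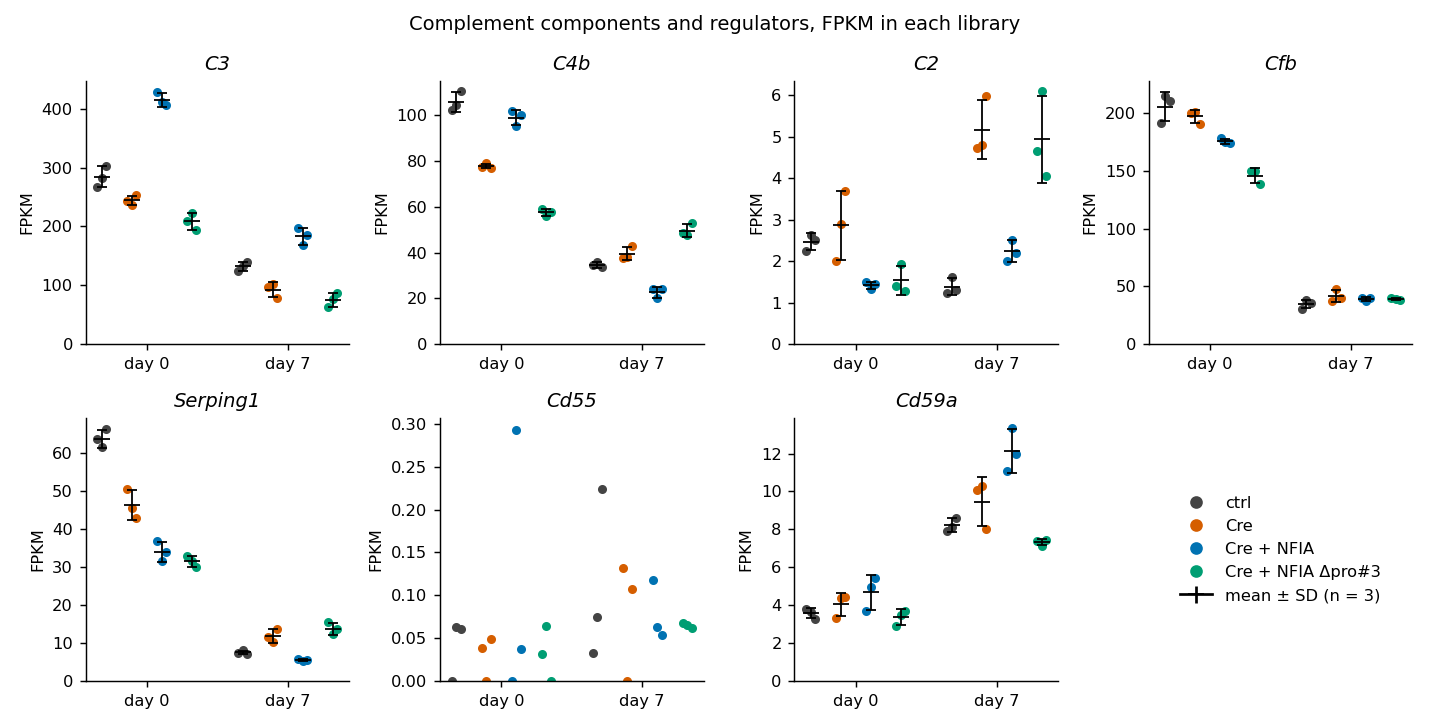
FPKM of the 7 members (one panel each, linear axes from 0) in the 24 libraries, by day and cell type; points are libraries and, except for Cd55, bars are the mean ± SD of 3. C3 is highest in Cre + NFIA at both days, Cfb and Serping1 are low at day 7 in all cell types, and Cd55 does not exceed 0.293 FPKM.

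C4b encodes complement component 4, the classical pathway's substrate of C1s, and its order among the cell types turned round between the days. Its day 0 levels were 102, 104 and 110 FPKM in ctrl, 77.3, 78.9 and 77.0 in Cre, 102, 95.1 and 99.9 in Cre + NFIA and 59.1, 56.1 and 57.7 in Cre + NFIA Δpro#3. The ctrl and Cre + NFIA libraries were the high ones at that day and Δpro#3 the low ones. The day 7 levels of C4b were 34.4, 36.1 and 33.6 in ctrl, 37.8, 38.0 and 42.9 in Cre, 23.9, 19.9 and 24 in Cre + NFIA and 48.5, 47.4 and 52.8 in Cre + NFIA Δpro#3. Full-length NFIA now gave the lowest values and Δpro#3 the highest, with no overlap between any 2 cell types. Cre + NFIA was 1.27-fold above Cre at day 0 (0.34, SE 0.041, adjusted p = 0.000132) and 1.75-fold below it at day 7 (-0.78, SE 0.077, adjusted p = 3.28e-06), and this difference changed by -1.13 between the days (SE 0.090, adjusted p = 3.81e-09). Δpro#3 was 1.72-fold below full-length NFIA at day 0 (-0.77, SE 0.041, adjusted p = 1.57e-06) and 2.19-fold above it at day 7 (1.10, SE 0.077, adjusted p = 1.16e-07), a change of 1.87 between the days (SE 0.090, adjusted p = 2.01e-12). Compared with ctrl, Cre was 1.36-fold lower at day 0 (-0.44, adjusted p = 0.000332), and at day 7 the difference was 0.18 (95% interval 0.01 to 0.35, adjusted p = 0.0609). Compared with Cre, Δpro#3 was 1.35-fold lower at day 0 (-0.42, adjusted p = 9.50e-05) and 1.25-fold higher at day 7 (0.32, adjusted p = 0.0145), the latter lost without Cre replicate 1 or 2 or Δpro#3 replicate 3 (0.29, 0.29 and 0.27, adjusted p = 0.0616, 0.0603 and 0.05). C4b has a near copy, C4a, 65209 bases away: 33.0% of the 50-base windows of its exons occur there as well, and since only reads with a single alignment were counted, its values are uncertain to that extent.

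C2, the protease that C1s cleaves beside C4, was a low-level member, at 33 to 195 reads per library. In the day 0 libraries C2 had 2.25, 2.64 and 2.51 FPKM in ctrl, 2.01, 2.89 and 3.69 in Cre, 1.49, 1.32 and 1.45 in Cre + NFIA and 1.40, 1.94 and 1.27 in Cre + NFIA Δpro#3. Both cell types with an NFIA vector lay below both without one. By day 7 the levels of C2 were 1.23, 1.62 and 1.31 in ctrl, 4.73, 4.79 and 5.99 in Cre, 2.0, 2.52 and 2.20 in Cre + NFIA and 4.67, 6.10 and 4.05 in Cre + NFIA Δpro#3. The libraries then fell into a high pair of cell types, Cre and Δpro#3, which overlapped each other, and a low pair, ctrl and Cre + NFIA, which did not. By mean FPKM, Cre was 3.72-fold above ctrl at day 7 (1.37, SE 0.13, adjusted p = 4.77e-06), Cre + NFIA 2.31-fold below Cre (-0.93, SE 0.13, adjusted p = 6.28e-05) and Δpro#3 2.21-fold above Cre + NFIA (0.86, SE 0.13, adjusted p = 8.64e-05). Between Δpro#3 and Cre the day 7 difference was -0.06, with a 95% interval of -0.35 to 0.22. At day 0, Cre + NFIA and Δpro#3 were 2.02-fold and 1.86-fold below Cre (-0.65 and -0.59, SE 0.15 each, adjusted p = 0.00774 and 0.0193), the second lost without Cre replicate 2 or 3 or Δpro#3 replicate 1 or 3 (-0.58, -0.44, -0.56 and -0.52, adjusted p = 0.0559, 0.0548, 0.0694 and 0.0752). The spans of C2 and Cfb both overlap that of the annotated gene Gm20547 on the same strand. Overlap of exons was not examined, so the effect of that gene on their values is not known.

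Cfb, which encodes factor B of the alternative pathway, fell with differentiation in every cell type and differed little among them afterwards. Before differentiation Cfb measured 191, 215 and 211 FPKM in ctrl, 200, 201 and 191 in Cre, 178, 175 and 174 in Cre + NFIA and 149, 149 and 138 in Cre + NFIA Δpro#3. The Δpro#3 libraries were the lowest, and ctrl and Cre overlapped. The day 7 libraries gave Cfb levels of 30.8, 37.9 and 35.7 in ctrl, 37.6, 47.4 and 39.9 in Cre, 39.9, 37.4 and 40.1 in Cre + NFIA and 40.02, 39.2 and 38.1 in Cre + NFIA Δpro#3. All 12 of these lay below the lowest value of day 0. At day 0, Δpro#3 was 1.35-fold below Cre (-0.43, SE 0.050, adjusted p = 0.000287) and 1.21-fold below Cre + NFIA (-0.27, SE 0.050, adjusted p = 0.00570), and Cre + NFIA was 1.12-fold below Cre (-0.16, adjusted p = 0.0321). That last difference was lost without any 1 of 5 of the 6 libraries compared (adjusted p = 0.0604 to 0.0926). At day 7 the difference between Δpro#3 and Cre + NFIA was -0.00 with a 95% interval of -0.19 to 0.19, and that between Cre + NFIA and Cre was -0.08 (-0.27 to 0.11). The 1.2-fold difference between Cre and ctrl passed (0.25, SE 0.088, adjusted p = 0.0284), but not with median-of-ratios size factors (0.12, adjusted p = 0.335) or without ctrl replicate 1 (0.17, adjusted p = 0.120) or Cre replicate 2 (0.15, adjusted p = 0.117).

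Serping1, the gene of the C1 inhibitor, was the highest of the 3 regulators at day 0. The levels at day 0 were 63.5, 61.3 and 66.1 FPKM in ctrl, 50.4, 45.3 and 42.8 in Cre, 36.7, 31.4 and 33.8 in Cre + NFIA and 32.8, 31.6 and 29.9 in Cre + NFIA Δpro#3. It stood highest in ctrl, then in Cre, and the 2 cell types with an NFIA vector overlapped at the bottom. At the later day its levels were 7.2, 8.01 and 7.2 in ctrl, 11.6, 10.2 and 13.6 in Cre, 5.81, 5.33 and 5.56 in Cre + NFIA and 15.4, 12.3 and 13.6 in Cre + NFIA Δpro#3. As for C2, Cre and Δpro#3 were the high cell types at day 7 and overlapped. Cre + NFIA was below Cre at both days, 1.36-fold at day 0 (-0.43, SE 0.070, adjusted p = 0.00107) and 2.12-fold at day 7 (-0.96, SE 0.10, adjusted p = 5.63e-06), and the difference changed by -0.52 between the days (SE 0.13, adjusted p = 0.00162). Δpro#3 did not differ from full-length NFIA at day 0 by a test (-0.11, 95% interval -0.26 to 0.05) and was 2.47-fold above it at day 7 (1.16, SE 0.10, adjusted p = 6.85e-07), a change of 1.27 between the days (adjusted p = 2.83e-08). Compared with ctrl, Cre was 1.38-fold lower at day 0 (-0.46, adjusted p = 0.00842) and 1.58-fold higher at day 7 (0.59, adjusted p = 0.000341).

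Cd59a, which encodes the membrane inhibitor of the pore, was the member whose level rose with differentiation in every cell type and stood highest at day 7 with full-length NFIA. Day 0 levels of Cd59a were 3.80, 3.65 and 3.27 FPKM in ctrl, 3.32, 4.36 and 4.42 in Cre, 3.67, 4.94 and 5.45 in Cre + NFIA and 2.88, 3.49 and 3.69 in Cre + NFIA Δpro#3, at 63 to 109 reads. Each cell type overlapped with each other one. Day 7 levels of Cd59a were 7.89, 8.11 and 8.61 in ctrl, 10.1, 10.3 and 8.0 in Cre, 11.1, 13.4 and 12 in Cre + NFIA and 7.39, 7.13 and 7.43 in Cre + NFIA Δpro#3. The Cre + NFIA libraries lay above all others and the Δpro#3 libraries below all others. Cre + NFIA was 1.28-fold above Cre at day 7 (0.33, SE 0.091, adjusted p = 0.00693) and Δpro#3 1.66-fold below Cre + NFIA (-0.66, SE 0.091, adjusted p = 3.95e-05). Against Cre, Δpro#3 was 1.29-fold lower (-0.32, adjusted p = 0.0290), which was lost without Cre replicate 1 or 2 or any 1 Δpro#3 replicate (adjusted p = 0.0542 to 0.119). No comparison among cell types at day 0 passed for Cd59a. Of the 50-base windows of its exons, 26.3% also occur in the neighbouring Cd59b, which limits its values as C4a does those of C4b. Cd55, the decay accelerating factor, was at 0 to 0.293 FPKM and 0 to 8 reads, with 0 reads in 5 of the 24 libraries, and no difference was detectable at this depth, since a count of 0 allows up to 3 reads in a library.

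The order of mean FPKM over all 8 groups differed between members. C3, Cfb, Serping1 and C4b had their 4 highest means at day 0. For C3 the order ran from Cre + NFIA, ctrl, Cre and Δpro#3 at day 0 to Cre + NFIA, ctrl, Cre and Δpro#3 at day 7, and the neighbours whose library ranges overlapped were Δpro#3 at day 0 with Cre + NFIA at day 7, and Cre with Δpro#3 at day 7. For C4b no 2 neighbours overlapped. For Cfb the order was ctrl, Cre, Cre + NFIA and Δpro#3 at day 0, then Cre, Cre + NFIA, Δpro#3 and ctrl at day 7, and the overlaps were ctrl with Cre at day 0 and the first 3 of day 7 with each other. Serping1 began with the same day 0 order and went on with Δpro#3, Cre, ctrl and Cre + NFIA at day 7, and the overlaps lay between the 2 cell types with an NFIA vector at day 0 and between Δpro#3 and Cre at day 7. Cd59a had its 4 highest means at day 7, led by Cre + NFIA and Cre, with overlap between Cre and ctrl at day 7 and among neighbours at day 0. C2 mixed the days, with Cre and Δpro#3 of day 7 at the top and Cre + NFIA of day 0 and ctrl of day 7 at the bottom, each of these pairs overlapping.

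Counted by comparison, with adjusted p under 0.05 as the test, 2 of the 6 members tested were lower and 0 higher in Cre than in ctrl at day 0, where 3.33% of all 12640 genes tested passed in either direction. These were C4b and Serping1. In Cre + NFIA against Cre at day 0, 2 were higher (C3 and C4b) and 3 lower (C2, Cfb and Serping1), where 27.6% of all genes passed. For Δpro#3 against Cre at day 0, 5 were lower and 0 higher (18.3% of all genes), and for Δpro#3 against full-length NFIA, 3 were lower, C3, C4b and Cfb, and 0 higher (10.1%). At day 7 most genes differed between cell types, and the counts of members stand against that background: 3 higher and 1 lower in Cre than in ctrl (58.8% of all genes), 2 higher and 3 lower in Cre + NFIA than in Cre (63% of all genes), and 3 higher and 2 lower in Δpro#3 than in Cre + NFIA (69.2% of all genes). Between Δpro#3 and Cre at day 7, 1 was higher, C4b, and 1 lower, Cd59a (17.7% of all genes). On the log2(FPKM + 1) scale, no member differed between cell types of the same day by more than the 1.37 of C2 in Cre against ctrl. These comparisons share the Cre and the Cre + NFIA libraries and are not independent of each other.

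**Figure D2:**
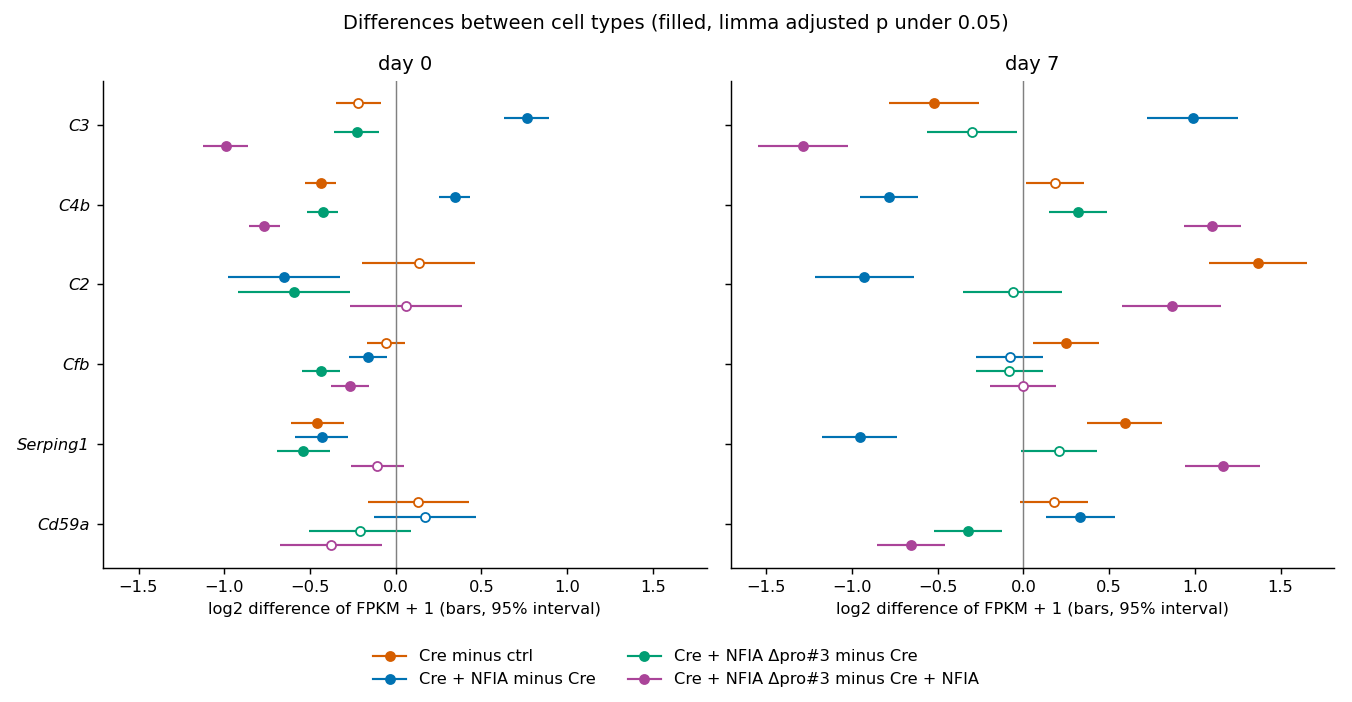
Differences between cell types for the 6 members tested, at day 0 (left) and day 7 (right), as log2 differences of FPKM + 1; points are estimates, bars 95% intervals, and filled points have an adjusted p under 0.05. C4b lies at 0.34 and -0.78 for Cre + NFIA minus Cre at the 2 days, and C3 at 0.76 and 0.99.

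Comparing Cre + NFIA with ctrl sets cells with NFIA from a vector beside cells that never had Cre. The mean of Nfia was 72.4 FPKM in Cre + NFIA against 6.47 in ctrl at day 0, and 90.0 against 9.55 at day 7. The comparison is thus with a level of Nfia far above that of ctrl. Of the members, only C4b and Serping1 had differed between Cre and ctrl at day 0 by the test. At day 0, 1 of the 6 was higher, C3 (1.46-fold, 0.55, SE 0.059, adjusted p = 6.83e-05), and 3 were lower, C2, Cfb and Serping1, where 33.1% of all genes passed. Of these Serping1 was 1.87-fold lower (-0.89, SE 0.070, adjusted p = 7.31e-06). The C2 difference of -0.52 (adjusted p = 0.0211) was lost without ctrl replicate 2 or 3 or Cre + NFIA replicate 2 (-0.48, -0.51 and -0.49, adjusted p = 0.0604, 0.0542 and 0.0641). At day 7, 3 were higher, C3, C2 and Cd59a, and 2 lower, C4b and Serping1, where 18% of all genes passed. C4b was 1.54-fold lower (-0.60, SE 0.077, adjusted p = 0.000316) and Cd59a 1.48-fold higher (0.51, SE 0.091, adjusted p = 0.00270). The other three lost the threshold on leaving out a library, with little change in size (C3 at 0.41 to 0.53, C2 at 0.38 to 0.51 and Serping1 at -0.39 to -0.32): C3 (0.47, adjusted p = 0.0194) was lost without ctrl replicate 1 or Cre + NFIA replicate 1 or 3 (0.43, 0.41 and 0.46, adjusted p = 0.0587 to 0.0771), C2 (0.44, adjusted p = 0.0379) without any 1 library but ctrl replicate 2 (adjusted p = 0.0571 to 0.135), and Serping1 (-0.37, adjusted p = 0.0265) without any 1 library but ctrl replicate 3 (adjusted p = 0.0536 to 0.0894).

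With differentiation, Cfb, Serping1, C3 and C4b fell and Cd59a rose in all 4 cell types, and the largest falls in ctrl were those of Serping1 and Cfb. From day 0 to day 7, 5 of the 6 members fell and 1 rose in ctrl, where 71% of all genes passed, and 4 fell and 2 rose in Cre (51.7% of all genes), in Cre + NFIA (70.1%) and in Δpro#3 (41.5%). Cfb was 5.91-fold lower at day 7 in ctrl (-2.53, SE 0.074, adjusted p = 1.29e-16), 4.73-fold in Cre, 4.49-fold in Cre + NFIA and 3.73-fold in Δpro#3. Serping1 was 8.52-fold lower in ctrl (-2.93, SE 0.089, adjusted p = 1.77e-16), 3.91-fold in Cre, 6.10-fold in Cre + NFIA and 2.29-fold in Δpro#3. The smallest fall of Serping1 was thus in Δpro#3, as was that of C4b, which was 4.37-fold lower in Cre + NFIA (-2.08, SE 0.064, adjusted p = 1.37e-16), 3.04-fold in ctrl, 1.96-fold in Cre and 1.16-fold in Δpro#3 (-0.21, adjusted p = 0.01). C3 was lower by 2.15-fold in ctrl, 2.64-fold in Cre, 2.26-fold in Cre + NFIA and 2.78-fold in Δpro#3 (-1.10 to -1.47 on the log2 scale, each passing). Cd59a rose by 2.30-fold, 2.34-fold, 2.59-fold and 2.18-fold in the same order. C2 alone went both ways, with a fall of 1.78-fold in ctrl (-0.54, SE 0.14, adjusted p = 0.00229) and rises of 1.81-fold in Cre, 1.58-fold in Cre + NFIA and 3.22-fold in Δpro#3 (0.69, 0.42 and 1.22, adjusted p = 0.000417, 0.0140 and 7.44e-07), of which that in Cre + NFIA was lost without its day 7 replicate 2 (0.36, adjusted p = 0.0601). In bulk RNA of a culture in which some cells become adipocytes, fewer cells of a type and less RNA per cell cannot be told apart.

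**Figure D3:**
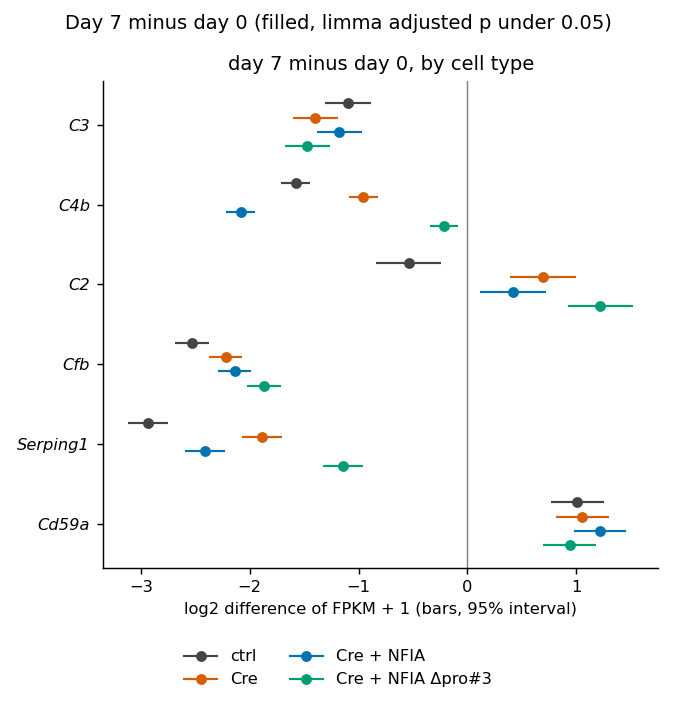
Change from day 0 to day 7 in each cell type for the 6 members tested, as log2 differences of FPKM + 1 with 95% intervals; filled points have an adjusted p under 0.05. Cfb lies between -2.53 and -1.87, C2 is at -0.54 in ctrl and above 0 in the other cell types, and Cd59a is above 0 in all 4.

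An interaction test asked whether the gap between 2 cell types depended on the day. For Cre against ctrl, 4 of 6 members had a higher difference at day 7 than at day 0 and 0 a lower one, where 49.2% of all genes passed. They were C2 (1.23, SE 0.20, adjusted p = 4.78e-05), Serping1 (1.05, SE 0.13, adjusted p = 1.26e-06), C4b (0.62, SE 0.090, adjusted p = 1.10e-05) and Cfb (0.31, SE 0.10, adjusted p = 0.0190). That of Cfb was lost with size factors (0.18, adjusted p = 0.210) and without ctrl replicate 1 or Cre replicate 2 of day 7 (0.23 and 0.21, adjusted p = 0.0642 and 0.0631). For Cre + NFIA against Cre, 0 were higher and 2 lower, C4b and Serping1, where 48.9% of all genes passed. For Δpro#3 against Cre + NFIA, 4 were higher and 0 lower (59.4% of all genes), C4b and Serping1 as given above, C2 (0.80, SE 0.20, adjusted p = 0.00196) and Cfb (0.27, adjusted p = 0.0329), and the last was lost with size factors (0.14, adjusted p = 0.327) and without any 1 of 5 of the libraries (adjusted p = 0.0512 to 0.0843). Neither C3 nor Cd59a passed in any of the 3 interactions. Size factors moved the median of all genes by -0.11, 0.11 and -0.12 in these interactions.

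The rest of the pathway was read from a list of 50 complement symbols outside the 7, of which 48 were in the table and 15 passed the filter on low values. Of the 48, 11 had 0 reads in every library, among them C1qa, C1qb and C1qc, which encode the recognition subunits of C1, and the pore component C6. At day 7, 7 of the 15 were higher and 3 lower in Cre than in ctrl, where 58.8% of all genes passed, with a median log2 difference of 0.22 beside 0.09 for all genes. In Cre + NFIA against Cre, 4 were higher and 9 lower (63% of all genes passed; median -0.31, all genes -0.06), and in Δpro#3 against Cre + NFIA, 10 were higher and 4 lower (69.2% of all genes passed; median 0.50, all genes 0.10). Between Δpro#3 and Cre, 1 was higher, Cr1l, and 1 lower, Cfd (17.7% of all genes passed), and between Cre + NFIA and ctrl 2 were higher and 2 lower (18%). The proteases of C1 were among the higher genes in Cre and Δpro#3 at day 7. C1ra, which encodes C1r, was at 33.9 ± 3.2 FPKM (SD, n = 3 here and below) in ctrl, 77.5 ± 1.2 in Cre, 29.8 ± 2.6 in Cre + NFIA and 86.2 ± 2.5 in Δpro#3. C1s1, the gene of C1s, was at 43.3 ± 5.8 FPKM in ctrl, 101 ± 11 in Cre, 35.4 ± 0.78 in Cre + NFIA and 111 ± 7.7 in Δpro#3, and was 3.12-fold higher in Δpro#3 than in Cre + NFIA (1.61, SE 0.095, adjusted p = 3.12e-08). Colec12, a collectin of the cell membrane, was 3.27-fold higher in the same comparison (1.66, SE 0.11, adjusted p = 5.49e-08). At day 0, C1ra was at 208 FPKM in ctrl, 212 in Cre, 150 in Cre + NFIA and 174 in Δpro#3, all above the day 7 means. Both proteases have near copies in the mouse, C1rb and C1s2, and reads shared with a copy were left out of the counting.

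Cfd, the gene of adipsin and the protease that acts on factor B, went the other way. It was at no more than 0.233 FPKM on average at day 0, and at day 7 it reached 287 ± 49 in ctrl, 45.3 ± 20 in Cre, 140 ± 7.0 in Cre + NFIA and 8.77 ± 4.3 in Δpro#3. Cre was 6.33-fold below ctrl (-2.71, SE 0.35, adjusted p = 4.29e-05), Cre + NFIA 3.09-fold above Cre (1.70, SE 0.35, adjusted p = 0.00117), Δpro#3 5.17-fold below Cre (-2.28, adjusted p = 0.00134) and Δpro#3 16.0-fold below Cre + NFIA (-3.98, SE 0.35, adjusted p = 8.08e-07). Its substrate Cfb, by contrast, had a mean between 34.8 and 41.6 FPKM in all 4 cell types at that day. Clu, which encodes clusterin, an inhibitor of the pore in plasma, stood like C3: it was at 3.94 ± 0.84 FPKM in ctrl, 2.33 ± 0.54 in Cre, 7.23 ± 0.58 in Cre + NFIA and 1.80 ± 0.20 in Δpro#3 at day 7, and was higher in Cre + NFIA than in Cre (1.32, SE 0.14, adjusted p = 6.50e-06). Cr1l, which encodes the rodent membrane regulator Crry, had means of 13.2 to 23.3 FPKM over the 8 groups, far above Cd55, and was highest in Cre + NFIA at day 0. C4a stayed at 0.425 to 1.07 FPKM on average. Cd59b was at 0.162 to 0.948 FPKM on average and did not pass the filter.

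**Figure D4:**
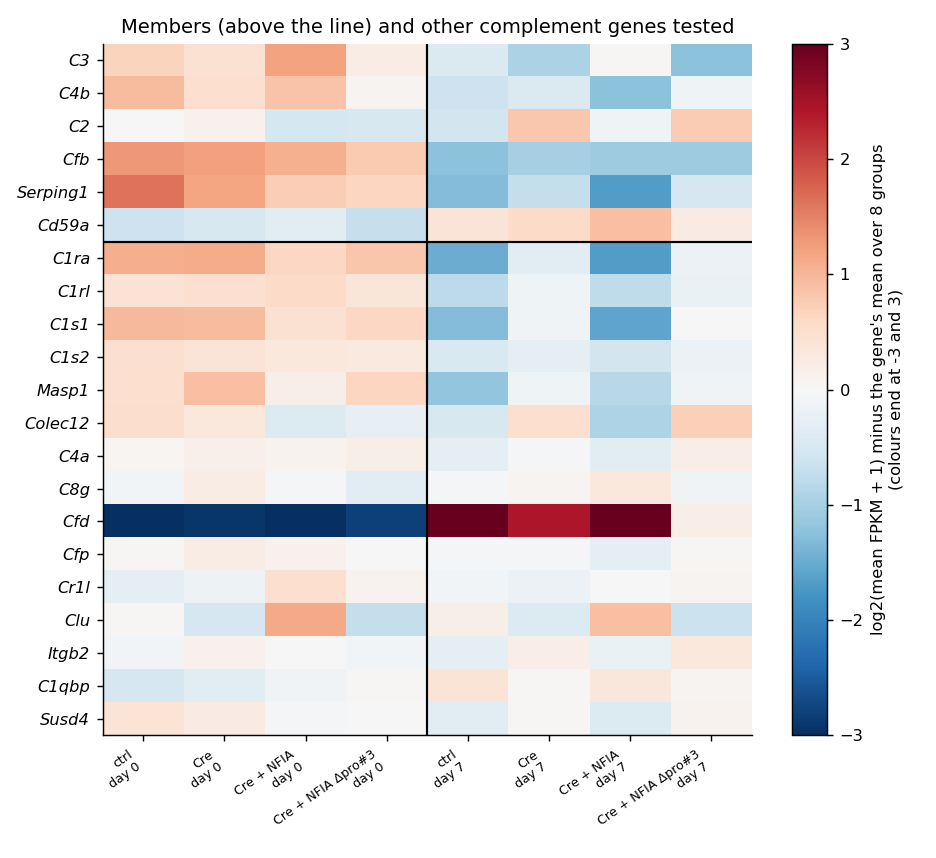
Members (above the line) and the 15 other complement genes tested, as log2 of the group's mean FPKM + 1 minus the gene's mean over the 8 groups (colour, ending at -3 and 3), with day 0 at the left of the vertical line. C1ra, C1s1 and Colec12 are low in ctrl and Cre + NFIA at day 7, where Cfd is highest.

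Markers of cell types moved with these differences at day 7. The summed FPKM of 10 adipocyte genes was 120 to 125 in the ctrl libraries, 90.9 to 107 in Cre, 116 to 121 in Cre + NFIA and 82.5 to 88.7 in Δpro#3 at day 0. At day 7 it was 22685 to 26289 in ctrl, 4566 to 9749 in Cre, 21471 to 21742 in Cre + NFIA and 878 to 2222 in Δpro#3. All 10 genes were lower in Cre than in ctrl (58.8% of all genes passed in either direction) and higher in Cre + NFIA than in Cre (63%). All 10 were also lower in Δpro#3 than in Cre + NFIA (69.2%). A list of 10 precursor and fibroblast genes, 8 of which were tested, summed to 1341 to 1470 in ctrl, 2354 to 2657 in Cre, 1048 to 1173 in Cre + NFIA and 2581 to 3008 in Δpro#3 at day 7, against 3164 to 4198 at day 0. Of these 8, 6 were higher and 1 lower in Cre than in ctrl at day 7 (58.8% of all genes passed). In Cre + NFIA 0 were higher and 7 lower than in Cre (63%), and in Δpro#3 8 were higher than in Cre + NFIA (69.2%). From day 0 to day 7, 1 was higher and 6 lower in ctrl (71%) and 2 and 5 in Cre (51.7%). In Cre + NFIA 1 was higher and 6 lower (70.1%), and in Δpro#3 4 were higher and 2 lower (41.5%). The lower sum at day 7 was thus not shared by every gene. At day 7, C4b, C2 and Serping1 were low in Cre + NFIA and high in Cre and Δpro#3, as the precursor sum was. C3 and Cd59a were higher in Cre + NFIA than in these 2, as the adipocyte genes were. In ctrl, C2 and Serping1 were low as the precursor sum was, at means of 1.39 and 7.47 FPKM against 5.17 and 11.8 in Cre. C4b in ctrl, at 34.7, lay between Cre + NFIA (22.6) and Cre (39.6). For C3 and Cd59a the likeness was not complete in ctrl, where the adipocyte sum was highest but both were below Cre + NFIA. The mean of Cd59a in ctrl, 8.21 FPKM, was also below the 9.46 of Cre. The part of the share of adipocytes in these results was not tested. The leukocyte list summed to 7.65 to 23.7 FPKM over the 24 libraries, and 5 of its 12 genes were tested. Adgre1 and Tyrobp had 0 reads in all libraries and Ptprc no more than 1, while Cd68 was at 3.53 to 8.23 FPKM, Cd14 at 0.516 to 8.62, Lyz2 at 0.582 to 5.71 and Csf1r at 0.0828 to 3.64. Of the 5 tested, 4 were higher and 1 lower in Δpro#3 than in Cre + NFIA at day 7, where 69.2% of all genes passed. The endothelial list summed to 1.67 to 10.2 FPKM, with Cdh5 at no more than 3 reads but Tek at up to 7.34 FPKM and Kdr at up to 3.73. At day 7 both of these were higher in Cre than in ctrl (58.8% of all genes passed) and in Δpro#3 than in Cre + NFIA (69.2%). Against Cre, 1 of them was higher and 1 lower in Cre + NFIA (63%), and likewise in Δpro#3 (17.7%). The mesothelial list summed to 0 to 0.441 FPKM, and the part of these cell types in the results was not tested.

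A list of interferon genes and one of NF-kB and acute phase genes were both mostly lower at day 7 than at day 0. A few genes of the second list were higher. All 13 interferon genes were lower at day 7 than at day 0 in ctrl, Cre and Δpro#3 and 12 in Cre + NFIA, with medians of -1.49, -1.04, -0.99 and -1.07 beside -0.05, 0.05, 0.05 and -0.05 for all genes. Of all genes, 71% passed in either direction in ctrl, 51.7% in Cre, 41.5% in Δpro#3 and 70.1% in Cre + NFIA. Of 12 NF-kB and acute phase genes, 9 were lower and 2 higher in ctrl, 9 and 3 in Cre, 10 and 2 in Cre + NFIA and 10 and 1 in Δpro#3. Their medians were -1.28, -1.34, -1.80 and -1.38, beside the same medians and shares of all genes. The acute phase genes Hp and Orm1 reached 356 and 177 FPKM in their highest libraries of day 7, against at most 68.2 and 4.82 at day 0. Their lowest libraries of day 7 were at 12.7 and 1.87 FPKM, against 15.7 and 1.12 at day 0, so the rise was not general. At day 7, 11 of the 13 interferon genes were higher in Cre than in ctrl and 9 were lower in Cre + NFIA than in Cre, with medians of 0.63 and -0.39, where 58.8% and 63% of all genes passed. In Δpro#3 against Cre + NFIA, 9 were higher and 3 lower (median 0.36, 69.2% of all genes passed). In the same 3 comparisons the NF-kB and acute phase list had 3 higher and 5 lower (median 0.14), 4 higher and 7 lower (median -0.44) and 6 higher and 4 lower (median 0.33). Their part in the members' levels was not tested.

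The genes most like each member were those with the highest Pearson r of log2(FPKM + 1) over the 24 libraries, among 8769 genes with a mean of at least 5 FPKM. The 24 libraries fall into 8 groups and are not independent points. For C3 they were Sema3f (r = 0.947) and Gypc (0.938), for C4b Emb (0.974) and Pdgfra (0.958), a receptor of adipocyte precursors, and for C2 Tom1l2 (0.909) and Pdlim1 (0.898). Cfb was most like Gm12250 (0.989) and Parp12 (0.988), and Serping1 like Ddx58 (0.991), which encodes the RNA sensor RIG-I, and Cxcl12 (0.987), a chemokine. Cd59a was most like Plin4 (0.950), a protein of lipid droplets, and Adh1 (0.943). Among the members at day 7, over 12 libraries of 4 cell types, C3 and Serping1 had an r of -0.97, C3 and C4b of -0.91 and C4b and Serping1 of 0.93. At day 0 the same pairs were at -0.01, 0.77 and 0.61.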

How the data were processed

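RNA-seq libraries were prepared by the authors with a stranded mRNA kit and aligned to mm9 with STAR 2.5.3a. Reads with a single alignment on the matching strand were counted per gene and deposited as FPKM, 1 file per library, with no raw counts; these FPKM values were used as deposited. Groups were taken from the sample labels. Since each FPKM times transcript length is a whole multiple of 1 read, reads were recovered (100% of values whole within 0.05 of a read), which gave the totals of 7.73 to 14.62 M reads. Whole reads were not used in the main test. Genes that reached 1 FPKM in 3 or more libraries entered the test, made with limma 3.58.1 in R 4.3.3 (eBayes with trend, two-sided) on log2(FPKM + 1), which understates changes of low genes such as C2 and Cd59a. Cell types within a day were fitted on the 12 libraries of that day, and changes between days and interactions on all 24. Adjustment was by Benjamini-Hochberg over the 12640 genes. The study's own test was made for counts, so limma took its place, and its 3-fold threshold served only to choose further complement genes to name; members were counted by adjusted p under 0.05 alone. The fit was checked on simulated data.

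The 7 members, the lists of complement, cell type, interferon and NF-kB genes and the motifs were chosen with earlier results of these data known. Named genes were the members, Nfia, other complement genes set by name (Cfd, C1ra, C1s1, C4a, Clu, Cd59b and Cr1l; 1 more is not reported here), list genes past 3-fold at day 7, and the 2 genes most like each member. C1qa, C1qb, C1qc and C6, and single marker genes, were named after their values were seen. Alternatives were pseudocounts of 0.1 and 5 FPKM, no filter, quantile and size-factor scaling, other fits (only the groups compared, all libraries, no trend, a replicate block, voom on the recovered reads) and leaving out each library. Positions are from the GENCODE annotation of NCBIM37.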

Additional observations from a re-analysis of the deposited data

Results flagged for a closer look

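For the members, 18 tests set the day 7 difference between 2 cell types against the day 0 difference. In 10 of the 18, the effect itself differed between the days (limma, adjusted p under 0.05 over all 12640 genes tested). Of all genes, 49.2%, 48.9% and 59.4% did so in the 3 interactions, beside 4, 2 and 4 of the 6 members tested. The count therefore does not set the members apart from other genes. The largest of the 10 was C4b in Cre + NFIA Δpro#3 against Cre + NFIA, at 1.87 on the log2 scale. There Δpro#3 went from the low to the high side in 3 of 3 libraries. C4b also changed by -1.13 in Cre + NFIA against Cre and by 0.62 in Cre against ctrl. Serping1 changed by 1.27, -0.52 and 1.05 in the same 3 comparisons. C2 changed by 0.80 in Δpro#3 against Cre + NFIA and by 1.23 in Cre against ctrl, and Cfb by 0.27 and 0.31, and both values of Cfb lost the threshold with size factors. The summed adipocyte and precursor genes differed between the cell types at day 7 as well, and their part in these changes was not tested. Groups of 3 libraries were not tested for a single library far from the others.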

How the results depend on the processing

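Of the 102 values tested for members, 74 passed, and 0 of these changed sign in any alternative run, while 14 lost the threshold in at least 1 that kept all libraries or left one out. Over the other settings, 1023 of 1063 values kept their direction and their side of the threshold, 21 were weaker, 15 stronger and 4 reversed. The reversed ones had not passed: Cfb in Cre + NFIA against Cre at day 7 with size factors (0.026), Cfb in Δpro#3 against Cre + NFIA at day 7 with quantile normalization (0.0088), and the Cd59a interaction of Cre against ctrl with size factors (-0.076) and with quantile normalization (-0.12). Counts of members that passed moved with only the groups compared in the fit, to 1 for Cre against ctrl and 3 for Δpro#3 against Cre at day 0 and to 1 for Δpro#3 against Cre at day 7. Without a filter they moved to 1 for Δpro#3 against Cre and 3 for Cre + NFIA against ctrl at day 7. With all libraries kept, other counts stayed within 1.5 times, though single values were lost, among them Cfb in Cre against ctrl at day 7 without a filter (adjusted p = 0.0551) or with only the groups compared (0.0915), and C3 in Δpro#3 against Cre and Cfb in Cre + NFIA against Cre at day 0 with all 24 libraries in one fit (0.114 and 0.102). With a mean of at least 5 FPKM as the filter, C2 was not tested. Leaving out a library gave 3 to 5 members for Δpro#3 against Cre at day 0, 0 to 4 for Δpro#3 against Cre at day 7 and 2 to 4 for Cre + NFIA against ctrl at day 7. On leaving out a library, the values that had not passed and changed sign ran from -0.018 to 0.30 (C2, Cre against ctrl, day 0), -0.052 to 0.13 (C2, Δpro#3 against Cre + NFIA, day 0), -0.15 to 0.014 (Cfb, both Cre + NFIA and Δpro#3 against Cre, day 7), -0.20 to 0.045 (C2, Δpro#3 against Cre, day 7), -0.033 to 0.018 (Cfb, Δpro#3 against Cre + NFIA, day 7) and -0.061 to 0.15 (Cd59a, interaction of Cre against ctrl). The causes were not tested. Size factors also moved the median of all genes by -0.11 in Cre against ctrl and by -0.10 in Δpro#3 against Cre + NFIA at day 7.

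Samples with the same replicate number did not deviate together (mean correlation of deviations -0.16 to 0.06 over the comparisons), so the number does not pair them. A fit with the replicate number as a block put 1 of the 102 member values on the other side of the threshold, C4b in Cre against ctrl at day 7, which then passed (adjusted p = 0.0493). Read depth limits C2, Cd59a and above all Cd55, whose 0 to 8 reads allow no comparison.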
